A study of Mus musculus with 12 samples.

Results

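Imprinted genes are transcribed from the maternal or the paternal copy according to marks set in the germ line. Here 37 mouse imprinted genes of 16 clusters were followed across 12 Affymetrix arrays of embryonic stem cells. They were chosen by name, and each was read through the probe set that carries its symbol alone, or through the brightest of several such probe sets. For 33 of the 37 genes such a probe set existed, among 22180 genes on the array. H19, Mirg, Rtl1 and Snrpn had only probe sets shared with another gene and were not read. All cells carried a MERVL::tdTomato reporter, a red fluorescent protein driven by an endogenous retrovirus of the early embryo. There were 4 groups of 3 arrays. They were the parental line, the line labelled Dppa2/4 KO (here KO), and this KO line expressing both proteins again as GFP fusions. The fusions were wild-type (KO+WT) or, per the design text, deficient for the attachment of SUMO, a small protein modifier (KO+Mut). Lipofection and a GFP sort are described for the add-back cells, and the labels do not say this of the parental or KO cells. Arrays are numbered as biological replicates 1 to 3, and the labels state neither what a number stands for nor how many KO clones were used.

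At an imprinted cluster, DNA methylation inherited from a single parent marks a control region, which then sets the expressed allele of several neighbouring genes. Embryonic stem cells carry these marks, and the KRAB zinc-finger protein ZFP57 with its partner TRIM28 and the methyltransferase DNMT1 are known for maintaining them. The proteins Dppa2 and Dppa4 bind DNA in the early embryo and in pluripotent cells and are known for protecting CpG-rich promoters from DNA methylation. The arrays add up both alleles, so that allele use and methylation were not measured.

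The values are log2 signals that the authors had normalized. Array medians lay between 3.73 and 3.88 and lower quartiles between 2.36 and 2.47, and no pair of the arrays held identical values. Differences between groups were tested with limma over all 22180 genes, and adjusted p is the Benjamini-Hochberg value over those genes with a threshold of 0.05. The median 95% half-width of a difference was 0.39 for the imprinted genes. The p-values measure the spread between these arrays. The knocked-out gene Dppa2 was 1.29 lower in KO than in parental cells (log2, SE 0.21, n = 3 per group, adjusted p = 0.0259) and Dppa4 differed by -0.84 (SE 0.18, adjusted p = 0.102). Their mean signals in KO were 8.48 and 7.62, above the array medians, and where their probes lie relative to the deleted parts was not examined. Over KO they were 2.60 and 2.77 higher in KO+WT and 2.72 and 2.92 higher in KO+Mut. Both add-backs were also above the parental level. Dppa2 was 1.31 higher than in parental cells in KO+WT (adjusted p = 0.0154) and 1.42 in KO+Mut (0.00529). Dppa4 was 1.93 (0.000253) and 2.08 (9.05e-05) higher. The 12 pluripotency markers had means of 8.40 to 8.71 per array. In KO+Mut 9 of them were lower than in KO (median -0.21, 0 past the threshold), and in KO+WT also 9 (median -0.15, 0 past it). Nanog lay between 10.25 and 10.76 and Pou5f1 between 6.60 and 6.87 on all arrays. Sox2 was 9.68 to 9.90 on the parental and KO arrays and 9.35 to 9.60 on those of both add-backs, with no overlap. With the replicate block 3 of the markers were lower in KO+Mut than in parental cells and 1 in KO+WT (all genes 1.54% and 0.996%).

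The start regions of 5 of the members whose signals differed most are shown with their CpG dinucleotides, on which DNA methylation lies. Whether any of these start regions falls in the control region of its cluster was not examined. Each is the 250 bases before a RefSeq transcription start in build GRCm38.p6, written 5′ to 3′ on the strand of the gene, with capitals at every CpG. Grb10 has an upstream start at chr11:12037421-12037670 and a downstream start at chr11:12027972-12028221, both on the minus strand. Phlda2 lies at chr7:143502525-143502774 and Ascl2 at chr7:142969265-142969514, both on the minus strand. Dlk1 lies at chr12:109452573-109452822 and the start of Mest shown at chr6:30737800-30738049, both on the plus strand.
Grb10 upstream start: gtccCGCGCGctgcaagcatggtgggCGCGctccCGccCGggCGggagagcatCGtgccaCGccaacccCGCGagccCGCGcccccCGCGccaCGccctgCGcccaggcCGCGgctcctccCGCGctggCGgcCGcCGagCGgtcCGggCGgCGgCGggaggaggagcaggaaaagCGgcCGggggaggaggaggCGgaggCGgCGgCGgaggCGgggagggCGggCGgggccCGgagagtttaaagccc
Grb10 downstream start: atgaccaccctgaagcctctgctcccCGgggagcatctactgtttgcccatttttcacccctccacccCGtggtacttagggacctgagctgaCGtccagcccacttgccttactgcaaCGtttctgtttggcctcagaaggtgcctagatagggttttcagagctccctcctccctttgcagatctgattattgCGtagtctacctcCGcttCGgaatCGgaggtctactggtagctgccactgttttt
Phlda2: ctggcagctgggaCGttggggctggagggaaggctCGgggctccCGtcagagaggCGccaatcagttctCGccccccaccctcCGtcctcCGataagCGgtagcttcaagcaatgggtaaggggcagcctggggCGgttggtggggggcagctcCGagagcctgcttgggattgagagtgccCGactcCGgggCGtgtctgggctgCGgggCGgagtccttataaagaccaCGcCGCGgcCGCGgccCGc
Ascl2: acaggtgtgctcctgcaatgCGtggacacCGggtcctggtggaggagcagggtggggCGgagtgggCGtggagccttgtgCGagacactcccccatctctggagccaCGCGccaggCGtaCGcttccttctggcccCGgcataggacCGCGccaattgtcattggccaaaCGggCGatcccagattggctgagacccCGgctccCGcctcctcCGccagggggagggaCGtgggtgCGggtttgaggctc
Dlk1: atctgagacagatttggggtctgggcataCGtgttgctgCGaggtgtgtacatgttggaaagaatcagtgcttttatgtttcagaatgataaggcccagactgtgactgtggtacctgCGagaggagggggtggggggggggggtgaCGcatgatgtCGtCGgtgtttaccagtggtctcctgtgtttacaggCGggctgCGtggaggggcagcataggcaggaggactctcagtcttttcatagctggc
Mest: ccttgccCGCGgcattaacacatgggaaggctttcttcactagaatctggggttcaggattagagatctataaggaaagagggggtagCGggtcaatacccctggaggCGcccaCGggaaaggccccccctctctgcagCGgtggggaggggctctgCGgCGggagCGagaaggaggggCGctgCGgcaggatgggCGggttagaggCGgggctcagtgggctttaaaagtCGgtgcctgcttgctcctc

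The upstream start of Grb10 held 40 CpGs in these 250 bases and the downstream start 8. Phlda2 held 21, Ascl2 19, Mest 14 and Dlk1 8. The median was 10 over 45 windows of 30 imprinted genes and 6 over all 32851 windows. The motif bound by ZFP57, TGCCGC on either strand, was present in 8 of the 45 windows, of 7 genes, and in 8.68% of all windows. Among the 8 are overlapping Mest windows, from base 30737800 and from 30737803, that hold the same copies of the motif. The motif contains a CpG, and windows of like CpG content were not compared. In the Mest window shown the motif began at bases 9 and 184 from the 5′ end. It was absent from the Grb10, Phlda2, Ascl2 and Dlk1 windows shown. Longer motifs of YY1 and CTCF were searched on both strands too, and no imprinted window held either, against 0.207% and 0.0335% of all windows. These matches describe the letters of the windows, and the probe set of a gene was not tied to any of its starts.

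Grb10 separated the parental cells from the other groups by the widest margin of the 33 genes. It encodes an adaptor that binds insulin and insulin-like growth factor receptors and restrains their growth signal, and it is expressed from the maternal copy in most tissues and from the paternal copy in neurons. On the parental arrays, in the order of the replicate numbers as in all such lists here, its log2 signal was 5.27, 5.34 and 4.53. It was 7.58, 7.57 and 6.16 on the KO arrays. With wild-type add-back it was 7.77, 7.79 and 6.51, and with mutant add-back 7.99, 7.67 and 6.56. Every array of the KO, KO+WT and KO+Mut groups was above every parental array, and the array of replicate 3 was the lowest of its group in all 4 groups.

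Against parental cells Grb10 was 2.31 higher in KO+WT (log2, SE 0.46, 4.96-fold, adjusted p = 0.0477) and 2.36 higher in KO+Mut (SE 0.46, 5.13-fold, adjusted p = 0.0299). The KO difference was of like size, 2.06 (95% interval 1.06 to 3.06, 4.18-fold), and did not pass (adjusted p = 0.13, within-group SD 0.70). Between arrays of the same number the KO difference was 2.32, 2.24 and 1.63. In a fit blocked on the replicate number the adjusted p was 0.000236 for KO, 9.87e-05 for KO+WT and 5.79e-05 for KO+Mut against parental cells. Without replicate 3 of all groups the KO difference was 2.28 (adjusted p = 0.00203). The KO+WT call was lost without any 1 of the parental replicates 1, 2 and 3 (adjusted p = 0.117, 0.127 and 0.182), without KO+WT replicate 1 (0.136) or 2 (0.16) and in the fit of those 6 arrays alone (0.0544). The KO+Mut call was lost without any 1 of the parental replicates 1, 2 and 3 (0.0764, 0.0757 and 0.136) and without KO+Mut replicates 1 and 2 (0.117 and 0.143).

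Adding the proteins back left Grb10 at 0.25 above KO with wild-type (95% interval -0.75 to 1.25) and 0.30 above KO with mutant add-back (-0.70 to 1.30). Neither interval reaches the parental mean. The difference between both add-backs was 0.05 (-0.95 to 1.05). Ddc and Cobl, its neighbours in the cluster, encode DOPA decarboxylase and an actin nucleator. Cobl was 0.43 higher in KO than in parental cells (SE 0.15, adjusted p = 0.48, groups not overlapping), and Ddc differed by 0.02 (SE 0.32, adjusted p = 0.999). Ddc was highest on replicate 3 of each group (5.53, 5.82, 5.63 and 5.32 in parental, KO, KO+WT and KO+Mut cells), where Grb10 was lowest. Cobl was highest there too (7.52, 8.09, 7.77 and 7.65). Of all genes 8.17% were highest and 9.37% lowest on replicate 3 in all 4 groups.

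**Figure D1:**
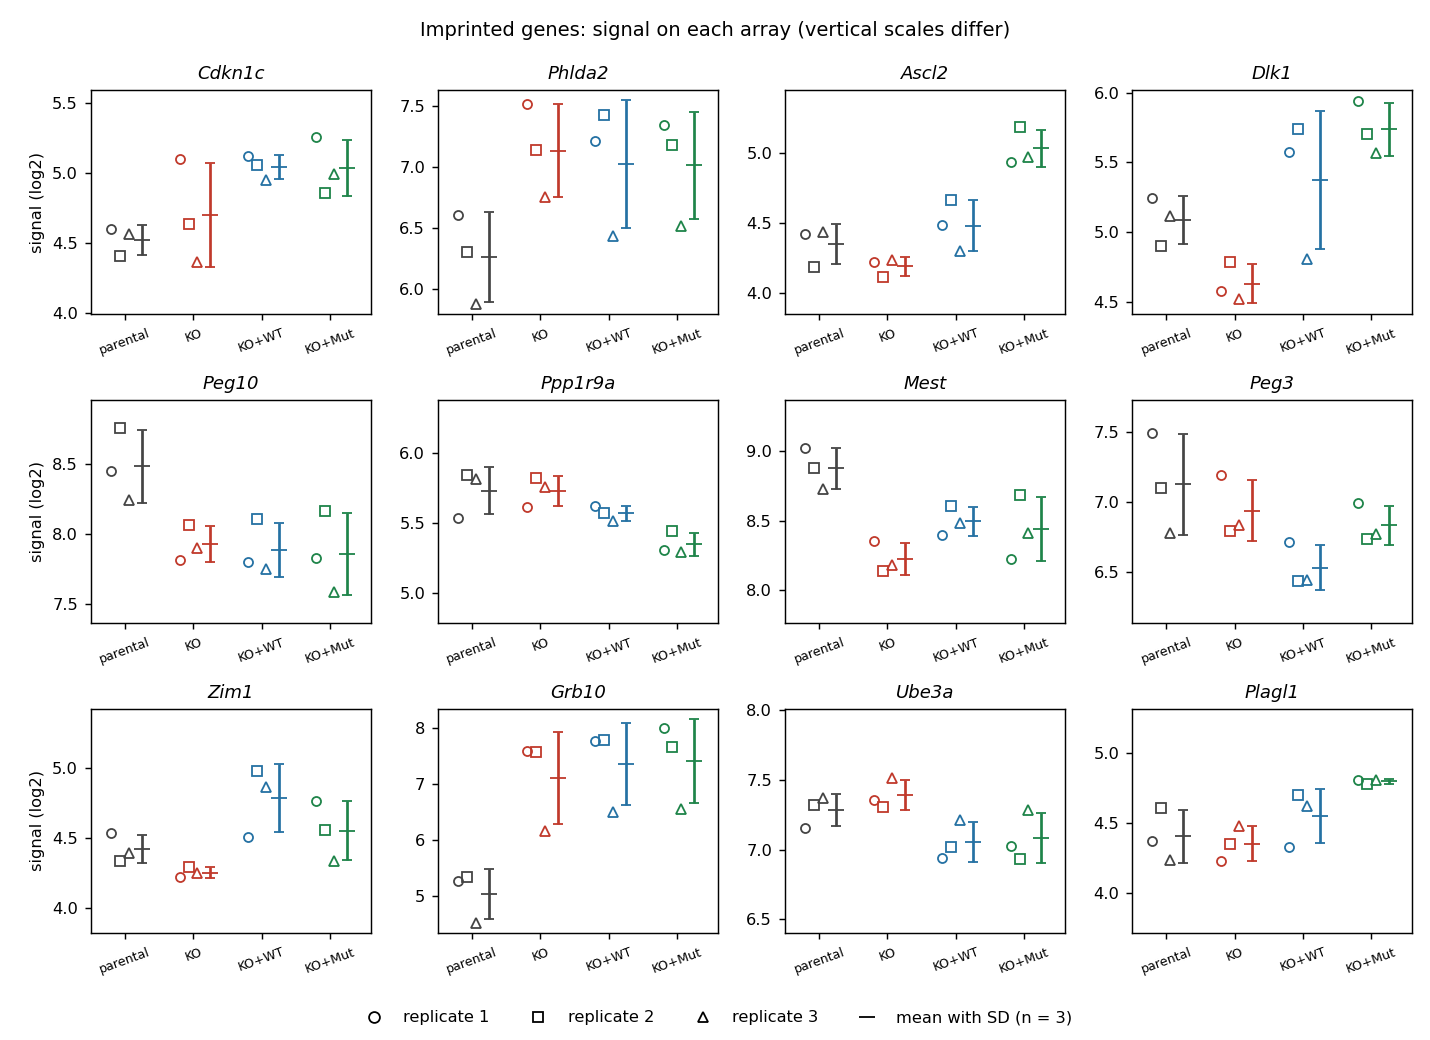
Signal (log2, vertical axes with differing scales) of 12 imprinted genes on each array, by group, with symbols for the replicate number and the group mean with its SD (n = 3). Grb10 lies between 4.53 and 5.34 on the parental arrays and between 6.16 and 7.99 on all others, and Ascl2 is highest on the 3 KO+Mut arrays (4.93 to 5.19).

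In the Kcnq1 cluster, a paternally expressed long RNA, Kcnq1ot1, silences its protein-coding neighbours in cis, so that these are expressed from the maternal copy. Phlda2, a pleckstrin-domain protein that limits placental growth, was 6.61, 6.30 and 5.88 on the parental arrays and 7.52, 7.14 and 6.75 on the KO arrays. It was 7.21, 7.43 and 6.43 on the KO+WT arrays and 7.35, 7.18 and 6.51 in KO+Mut. The KO arrays were all above the parental ones, and in each add-back the replicate 3 array fell within the parental range. Phlda2 differed from parental cells by 0.88 in KO (SE 0.30, adjusted p = 0.479), 0.76 in KO+WT (adjusted p = 0.371) and 0.75 in KO+Mut (adjusted p = 0.341). Blocked on the replicate number these passed, with adjusted p of 0.0186, 0.0208 and 0.0162, and the 3 same-number differences in KO were 0.91, 0.84 and 0.87. Add-back differed from KO by -0.11 (95% interval -0.75 to 0.53) with wild-type and -0.12 (-0.76 to 0.52) with mutant proteins.

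Ascl2, a bHLH factor needed for the placental trophoblast and a Wnt target in other tissues, rose with the mutant add-back. It was 4.42, 4.18 and 4.44 on the parental arrays, 4.22, 4.11 and 4.24 in KO, 4.48, 4.66 and 4.30 on the KO+WT arrays and 4.93, 5.19 and 4.97 in KO+Mut. All KO+Mut arrays were above all other arrays. It was 0.84 higher in KO+Mut than in KO (SE 0.13, adjusted p = 0.00501) and 0.68 higher than in parental cells (SE 0.13, adjusted p = 0.0247). Its difference from KO was 0.29 in KO+WT (SE 0.13, adjusted p = 0.399). Its difference between KO+Mut and KO+WT was 0.55 (95% interval 0.27 to 0.83, adjusted p = 1, unadjusted p = 0.00093), which did not pass over all genes.

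The call of Ascl2 against KO was kept whichever of the 6 arrays was left out (adjusted p from 0.0122 to 0.038), but not without replicate 3 of all groups (0.0633). Its call against parental cells was lost in the fit of those 6 arrays alone (0.061), without parental replicates 1, 2 and 3 (0.0598, 0.127 and 0.0638), without KO+Mut replicates 2 and 3 (0.128 and 0.0619) and without replicate 3 of all groups (0.114). Trophectoderm markers, 12 of them measured, had means of 4.30 to 4.67 in KO and 4.31 to 4.72 in KO+Mut, and 6 of 12 were higher in KO+Mut. Genes of the 2C-like state, a rare stem cell state resembling the 2-cell embryo, were higher than in KO in both add-backs. The mean of 15 such genes was 3.74 to 4.51 in parental cells and 2.47 to 2.62 in KO. It was 6.52 to 8.23 in KO+WT and 7.67 to 8.69 in KO+Mut. Their median difference from KO was 5.77 in KO+WT and 6.42 in KO+Mut. Between the add-backs 14 of the 15 were higher in KO+Mut (median 0.65, 0 past the threshold). Ascl2 and Dlk1 passed over KO in KO+Mut. In KO+WT both were above KO without overlap (0.29 and 0.74) and did not pass. The part of the 2C-like genes in the Ascl2 and Dlk1 results was not tested.

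The other genes of the Kcnq1 cluster did not pass in any comparison. Cdkn1c, an inhibitor of cyclin-dependent kinases, was 4.60, 4.40 and 4.56 on the parental arrays, 5.10, 4.64 and 4.36 in KO, 5.12, 5.06 and 4.95 on the KO+WT arrays and 5.26, 4.86 and 4.99 in KO+Mut. The arrays of both add-backs were above all parental arrays, each by 0.52 on average (SE 0.17, adjusted p = 0.275 and 0.238). The transporter gene Slc22a18, beside Phlda2, differed from parental cells by 0.57 in KO (0.27 to 0.79 with any 1 array left out), 0.60 in KO+WT (0.30 to 0.89) and 0.39 in KO+Mut (0.10 to 0.59), with overlap in each. Kcnq1ot1 itself differed from parental cells by -0.24 in KO, -0.23 in KO+WT and -0.04 in KO+Mut, and Tssc4 by at most 0.17.

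In the Dlk1-Meg3 cluster the coding genes Dlk1 and Rtl1 are paternal and the long RNAs Meg3, Rian and Mirg maternal, and loss of the maternal RNAs is a known defect of some pluripotent lines. Dlk1, a membrane protein of the Notch ligand family, was 5.24, 4.90 and 5.11 on the parental arrays and 4.58, 4.79 and 4.53 in KO. It was 5.57, 5.74 and 4.81 on the KO+WT arrays and 5.94, 5.71 and 5.57 in KO+Mut. KO arrays were below all parental arrays, and all arrays of both add-backs were above KO. Dlk1 rose by 1.10 in KO+Mut over KO (SE 0.21, 2.15-fold, adjusted p = 0.019). The difference of 0.74 in KO+WT did not pass (SE 0.21, adjusted p = 0.153), and without KO+WT replicate 3 it was 1.02 (adjusted p = 0.0129). The add-backs differed by 0.36 (95% interval -0.08 to 0.81, adjusted p = 1), and KO differed from parental cells by -0.45 (SE 0.21, adjusted p = 0.715). The KO+Mut call was lost without KO replicates 1 and 3 (0.0702 and 0.0839) and KO+Mut replicates 1 and 2 (0.0817 and 0.0807).

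Rian and Meg3, the maternal RNAs of that cluster, did not follow Dlk1. Rian was 8.13 to 8.88 in parental cells, 7.69 to 8.82 in KO, 7.50 to 8.64 in KO+WT and 7.62 to 8.48 in KO+Mut, and its difference from KO was -0.14 in KO+WT and -0.21 in KO+Mut. Meg3 lay between 3.88 and 4.73 on all arrays, with differences of -0.09 to 0.07 over the 6 comparisons. The lowest Rian signal of every group was that of replicate 3, by 0.68, 1.06, 1.13 and 0.85 below the mean of replicates 1 and 2 in parental, KO, KO+WT and KO+Mut cells.

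Peg10 and Mest, both paternally expressed, had their highest signals on the parental arrays. Peg10, a retrotransposon-derived gene needed for the placenta, was 8.45, 8.75 and 8.24 on the parental arrays and 7.81, 8.06 and 7.90 in KO. It was 7.80, 8.10 and 7.75 on the KO+WT arrays and 7.82, 8.16 and 7.58 in KO+Mut. Every parental array was above every other array. The differences from parental cells were -0.55 in KO, -0.60 in KO+WT and -0.63 in KO+Mut (SE 0.17, adjusted p = 0.4, 0.202 and 0.141), and all passed when blocked on the replicate number (0.0427, 0.0197 and 0.0109). Add-back differed from KO by -0.04 (95% interval -0.42 to 0.33) with wild-type and -0.07 (-0.45 to 0.30) with mutant proteins.

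Mest, a hydrolase-like protein of embryonic mesoderm, was 9.02, 8.88 and 8.73 on the parental arrays and 8.36, 8.14 and 8.18 in KO. It was 8.40, 8.60 and 8.48 on the KO+WT arrays and 8.22, 8.68 and 8.41 in KO+Mut, so that the parental arrays were again the highest. Its difference from parental cells was -0.65 in KO (SE 0.14, adjusted p = 0.107), -0.38 in KO+WT (0.335) and -0.43 in KO+Mut (0.211), and array weights brought the first past the threshold (adjusted p = 0.0367). Sgce, which shares the Peg10 start region, differed from parental cells by 0.21 in KO (0.04 to 0.46 with any 1 array left out), -0.36 in KO+WT and -0.22 in KO+Mut, and none passed. Copg2, which overlaps Mest on the other strand, differed by 0.18, -0.03 and -0.01 in the same groups, and none passed. Ppp1r9a, the maternal gene beside Peg10, was 5.61, 5.82 and 5.76 in KO, 5.62, 5.57 and 5.52 on the KO+WT arrays and 5.31, 5.44 and 5.29 in KO+Mut. It was 5.54, 5.84 and 5.82 on the parental arrays and differed by -0.38 between KO+Mut and KO (SE 0.12, adjusted p = 0.173, groups not overlapping).

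Endoderm markers, like Peg10 and Mest, had their highest mean on the parental arrays. Over parental replicates 1 to 3 this mean was 6.13, 6.50 and 6.69, where Mest was 9.02, 8.88 and 8.73. The mean of the 15 measured markers was 6.13 to 6.69 on the parental arrays, 5.59 to 5.96 in KO, 5.69 to 5.77 in KO+WT and 5.54 to 5.71 in KO+Mut. All 15 were lower in KO than in parental cells, with a median of -0.56 and 0 past the threshold. With the block 2 passed, where 0.437% of all genes were lower. Relative to parental cells 13 were lower in KO+WT and 15 in KO+Mut, 2 of them past the threshold in each (5 with the block). Of all genes 0.550% passed in KO+WT and 0.992% in KO+Mut, and 0.996% and 1.54% were lower with the block. None of the 15 lay below the lower quartile on all arrays. Their part in the results for Peg10, Mest and Grb10 was not tested. Fibroblast markers, read because imprinted genes such as Dcn are strongly expressed in those cells, had means of 4.62 to 4.81 in parental cells, 4.54 to 4.62 in KO, 4.61 to 4.74 in KO+WT and 4.60 to 4.64 in KO+Mut. In KO 12 of 14 were lower than in parental cells (median -0.15, 0 past the threshold). With the block 1 was higher and 1 lower (all genes 0.180% and 0.437%). Their part in the KO results was not tested. In bulk samples fewer cells of a type and less RNA per cell cannot be told apart.

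In the Peg3 cluster, Peg3, a zinc-finger protein expressed from the paternal copy, was 7.49, 7.10 and 6.78 on the parental arrays and 7.19, 6.79 and 6.83 in KO. It was 6.71, 6.43 and 6.44 in KO+WT, below all parental and KO arrays, and 6.99, 6.74 and 6.77 in KO+Mut. The KO+WT difference from parental cells was -0.60 (SE 0.18, adjusted p = 0.223), which passed when blocked on the replicate number (0.0275). The add-backs differed by 0.30 for Peg3 (95% interval -0.08 to 0.69, adjusted p = 1). Zim1, the maternal zinc-finger gene beside it, was 4.53, 4.34 and 4.39 on the parental arrays, 4.22, 4.29 and 4.24 in KO, 4.51, 4.98 and 4.87 on the KO+WT arrays and 4.76, 4.56 and 4.34 in KO+Mut. It was 0.53 higher in KO+WT than in KO, with no overlap (SE 0.14, adjusted p = 0.139). Usp29, which shares its start region with Peg3 on the other strand, lay between 2.20 and 2.83, below the lower quartile on 4 of the 12 arrays.

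In the Snrpn-Ube3a cluster, the ubiquitin ligase gene Ube3a was lower in both add-backs than in KO, without overlap. It was 7.16, 7.32 and 7.37 on the parental arrays, 7.35, 7.31 and 7.51 in KO, 6.94, 7.02 and 7.21 on the KO+WT arrays and 7.02, 6.94 and 7.28 in KO+Mut. Against KO it differed by -0.33 in KO+WT and -0.31 in KO+Mut (SE 0.13, adjusted p = 0.324 and 0.341), and its dimmer probe set differed by -0.29 and -0.24. Ndn and Magel2, MAGE-family genes of that cluster, differed from KO by 0.34 and 0.37 in KO+WT and by 0.37 and 0.59 in KO+Mut, and none passed. For Ndn both add-backs were above KO without overlap, and for Magel2 the groups overlapped. Peg12 differed by 0.74 between KO and parental cells (adjusted p = 0.71, 0.43 to 0.98 with any 1 array left out). Mkrn3 differed by 0.33 (adjusted p = 0.805, 0.19 to 0.44), and the groups overlapped for both. Plagl1, a zinc-finger gene whose product regulates other imprinted genes, was 4.37, 4.61 and 4.24 on the parental arrays, 4.23, 4.35 and 4.48 in KO, 4.33, 4.70 and 4.62 on the KO+WT arrays and 4.81, 4.78 and 4.81 in KO+Mut. On this probe set it was highest on the KO+Mut arrays, by 0.45 over KO (SE 0.13, adjusted p = 0.164). Its dimmer probe set differed from KO by 0.32 in KO+WT and 0.30 in KO+Mut, and by -0.03 between KO+Mut and KO+WT.

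None of the remaining members passed in any comparison. The growth factor gene Igf2 was 3.99 to 4.88 over all arrays, and Igf2r, the receptor that clears it, was 6.58 to 7.32, with differences from parental cells of -0.33 and -0.27 in KO. Airn, the antisense RNA that silences Igf2r, and the matrix proteoglycan gene Dcn were below the lower quartile on 11 of 12 arrays. Impact, an inhibitor of the kinase GCN2, was 9.21 to 9.78, and both add-backs were below all parental arrays, by 0.30 each. Nap1l5 differed from parental cells by -0.28 in KO+WT and -0.39 in KO+Mut, also without overlap. Zdbf2, 7.09 to 7.94 over all arrays, differed by -0.36 between KO+Mut and KO, without overlap (adjusted p = 0.416). Nnat was 4.81 to 5.41 and Gnas 4.01 to 4.79. Between KO+WT and KO the Nnat probe set used differed by -0.08 and its dimmer one by -0.79. The latter did not pass (SE 0.23, adjusted p = 0.167 by limma over all probe sets with 1 symbol). Among the 21 members not described array by array, the smallest adjusted p over the 6 comparisons was 0.245 (Magel2, KO+Mut against KO).

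**Figure D2:**
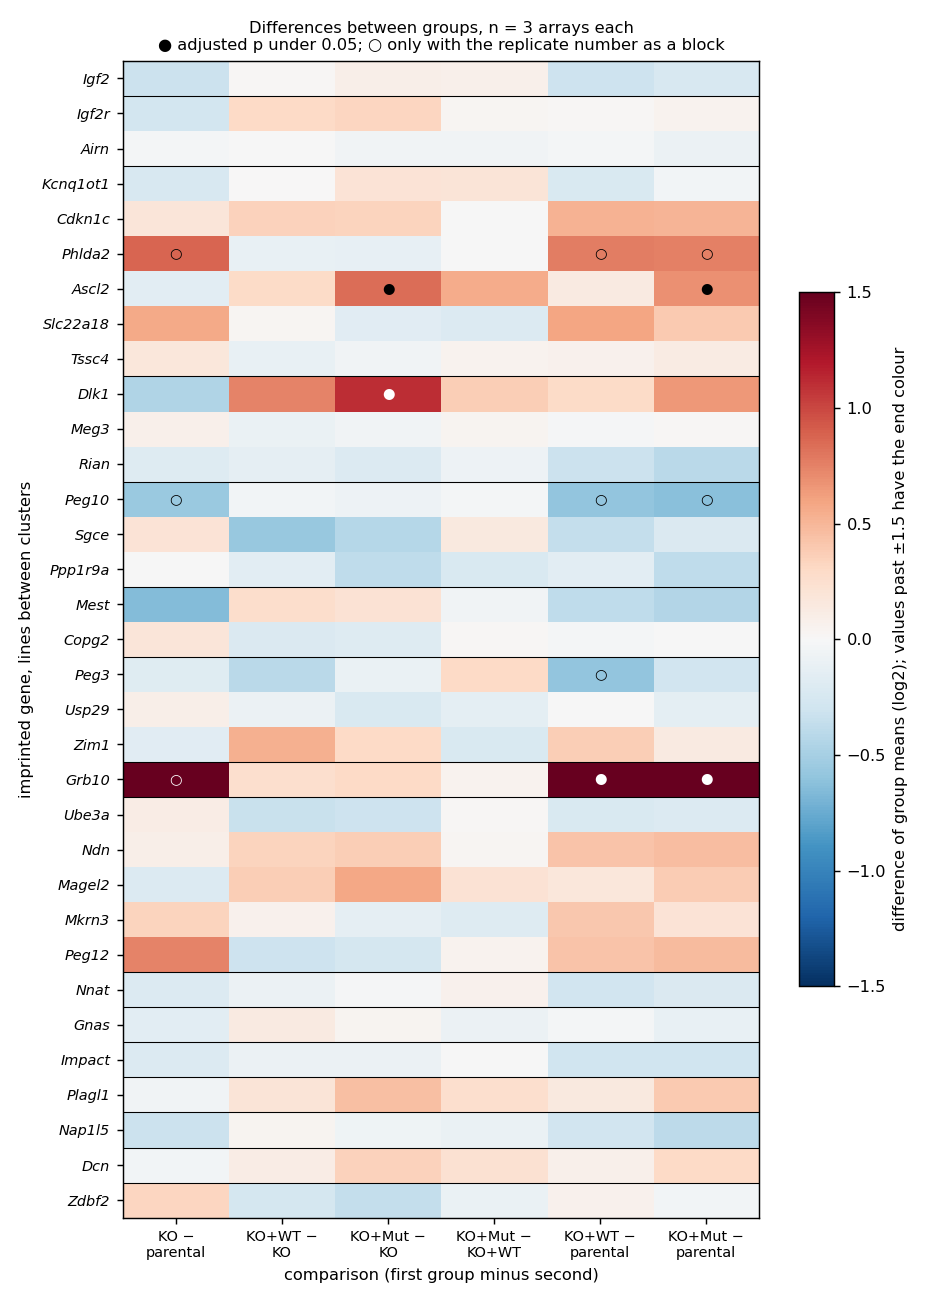
Differences between group means (log2, colour) of the 33 imprinted genes (rows, by cluster) in the 6 comparisons (columns), with filled circles at an adjusted p under 0.05 and open circles where this held only in the blocked fit. Grb10 stands out in the 3 comparisons with parental cells (2.06, 2.31 and 2.36), and Ascl2 and Dlk1 in KO+Mut against KO (0.84 and 1.10).

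Counted over the list, 0 of 33 genes passed in KO against parental cells, where 0.239% of all genes did. At an unadjusted p under 0.05 there were 7, or 21.2% against 6.94% of all genes. Blocked on the replicate number 3 passed, against 0.618% of all genes. Grb10 and Phlda2 were higher (all genes 0.180%) and Peg10 was lower (0.437%). The groups did not overlap for 6 of the 33 (18.2%), against 12.9% of all genes. The median difference was -0.05 for the list and 0.00 for all genes, with 14 positive and 19 negative. Of 18 paternally expressed genes 12 were negative (median -0.19), and of 14 genes with maternal expression in some tissue 8 were positive (median 0.09).

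In KO+WT against KO 0 of 33 passed in the limma fit, where 0.830% of all genes did, and 5 had an unadjusted p under 0.05 (15.2%), as did 2662 of the 22180 genes. For 7 of the 33 the groups did not overlap (21.2%, all genes 16.0%). In KO+Mut against KO 2 rose, Ascl2 and Dlk1, where 1.12% of all genes were higher and 1.27% passed in either direction. At an unadjusted p under 0.05 there were 6 (18.2%, all genes 12.5%), and for 9 the groups did not overlap (27.3%, all genes 18.0%). Over all genes 162 were higher and 22 lower in KO+WT than in KO, and 248 and 34 in KO+Mut. After centring each array on its median these were 112 and 37, and 194 and 72. Both of these comparisons use the KO arrays, and those that follow share the parental arrays.

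In KO+WT against parental cells 1 gene of the list passed, Grb10, where 0.320% of all genes were higher and 0.550% passed. In the blocked fit 4 passed (all genes 2.06%), of which Grb10 and Phlda2 were higher (1.07%) and Peg10 and Peg3 lower (0.996%). In KO+Mut against parental cells 2 were higher, Grb10 and Ascl2, where 0.654% of all genes were higher and 0.992% passed. Over all genes 145 were higher and 75 lower there, and 122 and 109 after centring on the median. In the blocked fit 4 passed (all genes 3.13%), of which Grb10, Phlda2 and Ascl2 were higher (1.59%) and Peg10 lower (1.54%). At an unadjusted p under 0.05 there were 10 in KO+WT (30.3%, all genes 10.7%) and 12 in KO+Mut (36.4%, all genes 11.5%). The groups did not overlap for 7 and 12 of the 33 in these comparisons (21.2% and 36.4%, against 15.9% and 18.0% of all genes). Between the add-backs 0 of 33 passed by limma, as did 0% of all genes. Ascl2 was the 1 gene of the list with an unadjusted p under 0.05 (3.03%, against 3.04% of all genes), and 5 had groups without overlap (15.2% against 6.68%).

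Same-numbered arrays often stood at the same end of their groups. On the replicate 3 array 9 of the 33 genes were lowest in all 4 groups (27.3%, against 9.37% of all genes). They were Igf2r, Phlda2, Slc22a18, Meg3, Rian, Sgce, Copg2, Grb10 and Gnas. Replicate 3 was below the mean of replicates 1 and 2 by 0.77 to 1.42 for Grb10 and by 0.52 to 1.29 for Sgce. Ube3a and Impact went the other way and were highest on replicate 3 in all 4 groups (6.06%, against 8.17% of all genes). On replicate 1, 7 genes were highest in all 4 groups (21.2%, against 6.51% of all genes), among them Igf2, Igf2r, Cdkn1c and Peg3. The median within-group SD was 0.24 for the list and 0.20 for all genes.

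**Figure D3:**
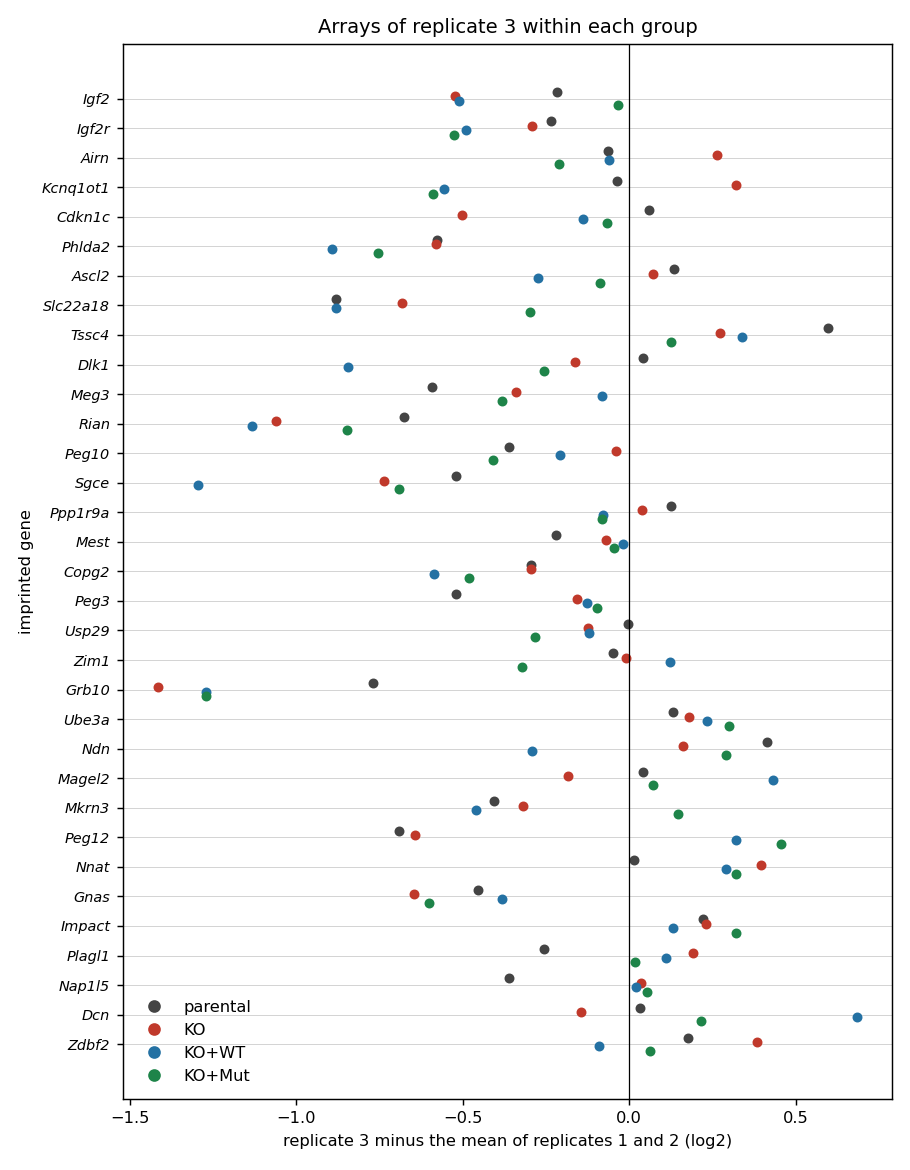
Signal of replicate 3 minus the mean of replicates 1 and 2 (log2, horizontal axis) for each of the 33 imprinted genes, with 1 point for each of the 4 groups. For Grb10, Rian, Sgce and Phlda2 all 4 points lie below -0.5, and for Ube3a and Impact all lie above 0.

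Of 49 measured genes on a list of other imprinted genes, 1 changed in KO against parental cells, where 0.239% of all genes passed. Smoc1, which encodes a matrix protein that modulates BMP signalling, fell by 1.21 (SE 0.19, adjusted p = 0.0217). It was 6.10, 5.68 and 6.08 on the parental arrays and 5.04, 4.78 and 4.39 in KO. It was 0.93 lower than in parental cells in KO+Mut (SE 0.19, adjusted p = 0.0366). The KO+WT arrays, at 5.37, 5.23 and 5.36, were also all below the parental arrays, and Smoc1 did not pass there. With any 1 array left out these calls were kept in 2 of 6 fits each (adjusted p from 0.0249 to 0.12 and from 0.02 to 0.17). The other 48 did not pass in KO, and the list medians lay between -0.05 and 0.08 in the 6 comparisons. The Polycomb-related gene Sfmbt2 differed between KO+WT and KO by -0.61 (SE 0.17, adjusted p = 0.146). Xist differed from parental cells by -0.76 in KO+WT (SE 0.18, adjusted p = 0.094), which passed with the replicate block (0.0368).

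Among 31 measured genes of imprint maintenance and DNA methylation, Hells fell in both add-backs relative to parental cells. Hells encodes a chromatin remodeller that supports DNA methylation. Its signal was 9.26, 9.24 and 9.58 on the parental arrays, 8.61, 8.82 and 8.99 in KO, 8.24, 8.51 and 8.66 on the KO+WT arrays and 8.16, 8.32 and 8.69 in KO+Mut. It was 0.89 lower in KO+WT (SE 0.17, adjusted p = 0.0384) and 0.97 lower in KO+Mut (SE 0.17, adjusted p = 0.0147), and differed by -0.56 in KO (adjusted p = 0.375, and 0.0297 with the replicate block). With any 1 array left out the KO+WT call was kept in 0 of 6 fits (0.0556 to 0.162) and the KO+Mut call in 3 of 6 (0.0127 to 0.0806). The de novo methyltransferase gene Dnmt3b differed from parental cells by -0.86 in KO, -0.93 in KO+WT and -0.99 in KO+Mut (SE 0.38, adjusted p = 0.679, 0.389 and 0.323). With the replicate block all 3 passed (0.00439, 0.00193 and 0.000973), as the same-number differences in KO were -0.85, -0.82 and -0.92. Dnmt3a, the other de novo methyltransferase gene, differed from parental cells by -0.49 in KO+WT and -0.59 in KO+Mut (SE 0.34, adjusted p = 0.653 and 0.561), and both passed with the block (0.0491 and 0.0193). The oxidase gene Tet3 was 0.56 higher in KO+WT than in parental cells (SE 0.12, adjusted p = 0.056, and 0.0309 with the block). Dppa3 differed by -0.73 between KO and parental cells, without overlap (SE 0.23, adjusted p = 0.41, and 0.254 with the block). Of the 31 genes 23 were lower in KO than in parental cells, with a median of -0.06 against 0.00 for all genes. Relative to parental cells 25 were lower in KO+WT (median -0.15) and 23 in KO+Mut (-0.14). Relative to KO 24 were lower in KO+WT (median -0.09) and 23 in KO+Mut (-0.08).

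**Figure D4:**
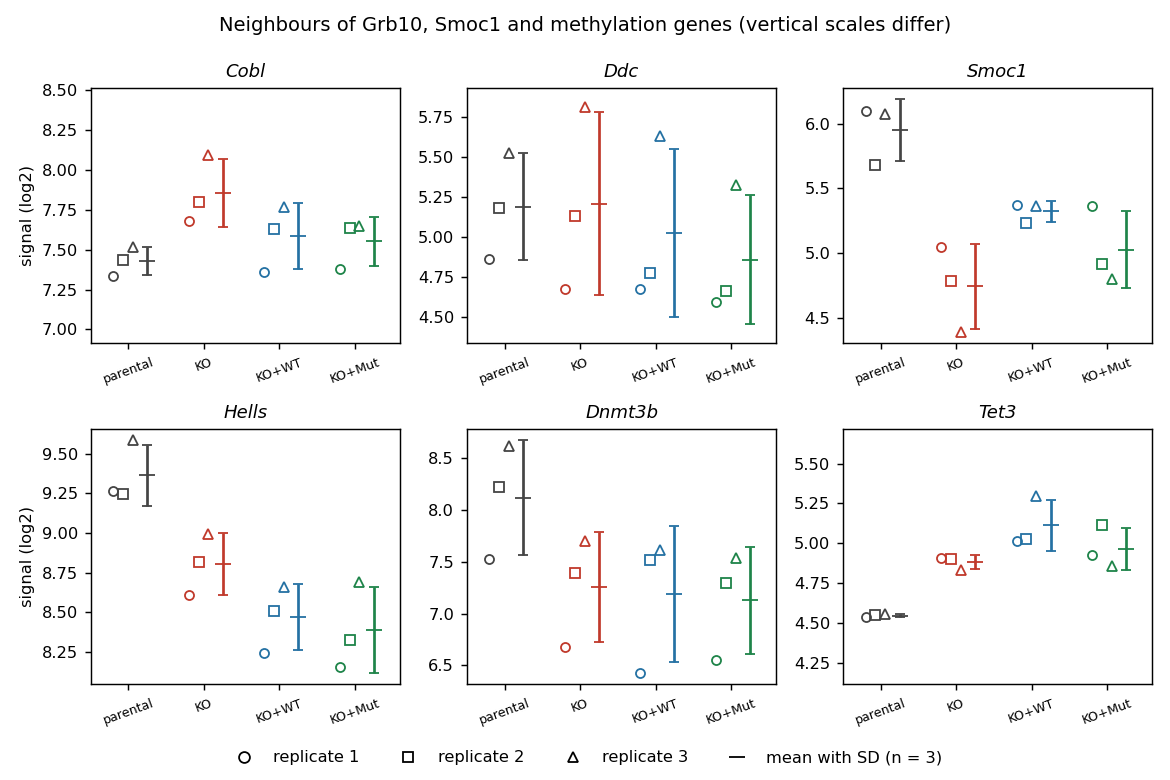
Signal (log2, vertical axes with differing scales) of Cobl and Ddc, the neighbours of Grb10, of Smoc1 and of 3 methylation genes on each array, by group, with symbols for the replicate number and the group mean with its SD (n = 3). Hells is highest on the 3 parental arrays (9.24 to 9.58), and Cobl and Ddc are highest on replicate 3 in every group.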

How the data were processed

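The arrays measured RNA from 12 mouse embryonic stem cell samples, labelled per the labels' protocols with the Affymetrix WT Plus kit. Each probe set has, on each array, a log2 signal that the authors normalized before they deposited it. The log2 scale was inferred from the values, which carry no stated unit. The Transcriptome Analysis Console is named per the submitters' processing notes, and neither its settings nor a genome build is given in the sources used here. Any compression of low signals by those steps would carry into the differences, and without detection calls low values cannot be separated from background.

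GEO's annotation gave 1 gene symbol to 23521 of the 41345 probe sets, several to 1814 and none to 16010. The probe set of highest mean stood for a gene, leaving 22180 genes, with no filter on low values; 30 of 33 imprinted genes exceeded percentile 25 of signal. Group differences came from limma 3.58.1 under R 4.3.3 (1 mean per group, 12 arrays sharing the spread, Benjamini-Hochberg over all genes), after a test on simulated data. Alternatives were a replicate block, quantile normalization, median centring, a filter on dim genes, trend and robust variances, fits of 6 arrays, averaged probe sets, array weights and leaving out arrays. Python 3.11.15 with pandas 2.3.3 and matplotlib 3.10.9 served for tables and plots. Promoter sequences are RefSeq's (GRCm38.p6), and 30 of 37 symbols matched.

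The rule for showing a gene array by array was an adjusted p under 0.05 with or without the block, groups without overlap and at least 0.5 apart, or 1 of the 3 smallest p-values of a comparison. Lists of 49 other imprinted genes and 31 methylation genes were described by counts. Values are given for genes past the threshold in the main fit. They are given for only some genes past it with the block alone, or of the 2 smallest p-values in a comparison. The members and lists were chosen with earlier results of these data known.

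Same-numbered arrays were taken as paired where the deviations from group means, over all genes, correlated above 0.1 in all 3 numbers. This held for KO against parental cells (0.36, 0.15 and 0.42), KO+WT (0.33, 0.15 and 0.31) and KO+Mut (0.33, 0.13 and 0.36) against parental cells and the add-backs (0.40, 0.21 and 0.47), but not for KO+WT (0.31, 0.06 and 0.29) or KO+Mut (0.31, 0.08 and 0.36) against KO.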

Additional observations from a re-analysis of the deposited data

How the results depend on the processing

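The 20 differences of single imprinted genes that passed in some fit or had groups without overlap at least 0.5 apart were refitted 300 times in all, and none changed sign. Of these refits 265 stayed on the same side of the threshold, 23 lost a call and 12 gained one. With the replicate number as a block the imprinted genes higher in KO than in parental cells went from 0 to 2 and those lower from 0 to 1. In that fit 2 were higher and 2 lower in KO+WT than in parental cells, against 1 and 0, and 1 was lower in KO+Mut, against 0. The block moved no other count of imprinted genes called by over 1.5 times, and neither repeat quantile normalization, median centring, the filter on dim genes, trend and robust variances nor averaged probe sets moved any. For the add-backs against KO, whose arrays were not taken as paired, it gave 0 and 2 genes, as without it, and it brought Begain in KO+WT and Ctcfl, Kdm1b and Hells in KO+Mut past the threshold. Array weights gave 1 higher (Grb10) and 1 lower (Mest) in KO. The fits of 6 arrays gave 0 higher in KO+WT and 1 in KO+Mut against parental cells. Leaving out 1 array gave 0 to 1 higher against KO with wild-type and 1 to 2 with mutant add-back, and 0 to 1 higher against parental cells with either. Without replicate 3 of all groups, chosen after seeing the data, 1 was higher in KO than in parental cells, 1 in KO+Mut than in KO and 1 in KO+Mut than in parental cells.

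Over all genes the block gave 40 higher and 97 lower in KO than in parental cells, against 8 and 45, and array weights 26 and 113. Relative to KO it gave 353 and 141 with wild-type (162 and 22 without it) and 480 and 236 with mutant add-back (248 and 34). Relative to parental cells it gave 237 and 221 (71 and 51) and 353 and 342 (145 and 75). The cause of these changes was not tested. The number of arrays and, for Airn, Dcn and Usp29, signal near the lower quartile limit what these comparisons can show.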
